A study of Mus musculus with 36 samples.

Results

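*Gdnf*, *Ret*, *Gfra1* and *Gfra2* encode a secreted ligand, its receptor tyrosine kinase and 2 co-receptors, and their transcripts were followed across Wnt doses and Wnt-component knockouts in cultured mouse nephron progenitor cells (NPCs). The 4 genes were picked by symbol from the 3 tables of normalized counts, which together list 30125 genes. *Gdnf*, *Gfra1* and *Gfra2* passed the filter on low values (a mean of at least 10 normalized counts) in each table, and *Ret* passed it in none. All 36 libraries came from primary NPCs of E16.5 kidneys grown in nephron progenitor expansion medium, each from pooled kidneys of Swiss Webster or C57Bl/6 dams, with the sexes not told apart. The wild-type table holds 3 libraries each with no, low (1.25 µM) and high (5 µM) CHIR99021 (CHIR), an inhibitor of GSK3β that stands in for a Wnt signal. In the second table β-catenin was removed in 2 ways, over 24 h in low CHIR before a further day in low or high CHIR, and each of its 8 groups has 2 libraries. The first way was transfected Cre mRNA in NPCs of the genotype B-catenin_c_c (a conditional *Ctnnb1* allele), against the same NPCs without Cre. The second was a set of 4 *Ctnnb1* guides in Cas9-eGFP NPCs, against a guide to GFP. The third table holds Cas9-eGFP NPCs with guides to *Tcf7l1*, *Tcf7l2*, *Tcf7* and *Lef1* (quadruple knockout, QKO), kept in low CHIR for 48 h before the change, against the GFP guide. It has 3 libraries a group, except QKO in low CHIR, which has 2. Transfected cells were sorted by co-transfected mCherry, so the knockout libraries are transfected cells and the wild-type libraries are whole cultures. Transfected cells were not clones, and a library can mix edited and unedited cells.

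GDNF is the main outgrowth signal for the ureteric bud. It is made by the nephron progenitors and neighbouring mesenchyme and binds GFRα1, a GPI-anchored co-receptor, which presents it to the receptor tyrosine kinase RET on ureteric tip cells. GFRα2 prefers the related ligand neurturin and also signals through RET. In the fetal kidney RET is a ureteric gene, while GFRα1 is found both in ureteric tips and in mesenchyme.

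In the GENCODE vM21 annotation of GRCm38, *Gdnf* (ENSMUSG00000022144) spans chr15:7810846-7837575 on the plus strand and *Ret* (ENSMUSG00000030110) spans chr6:118151745-118197718 on the minus strand. *Gfra1* (ENSMUSG00000025089) spans chr19:58235604-58455909 on the minus strand and *Gfra2* (ENSMUSG00000022103) spans chr14:70890120-70979838 on the plus strand. The exons of *Gfra1* overlap those of the antisense gene *Gm16277*, which is in none of the tables, and reads of the pair cannot be told apart where the counting does not use strand. The merged exons measure 3674 bases for *Gdnf*, 6763 for *Ret*, 5476 for *Gfra1* and 3539 for *Gfra2*, and levels are compared between genes only after division by this length.

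The guides that made the knockouts are shown because the Cas9 and QKO results below rest on their cuts, while the Cre results involve no guide. The PAM next to each site is in capitals, as read from GENCODE vM21 transcripts (GRCm38), and each of the 6 placed sites lies inside a coding exon. The 4 *Ctnnb1* guides read the minus strand at chr9:120950987-120951006, chr9:120951011-120951030, chr9:120950729-120950748 and chr9:120951618-120951637, in the order given. The *Tcf7l1* site is chr6:72788307-72788326 and the *Tcf7* site is chr11:52261584-52261603, both on the plus strand. The *Tcf7l2* and *Lef1* guides are printed without a PAM or a position, because no single exon of the transcripts used held the whole site.
Ctnnb1 guide 1: atgagcagcgtcaaactgcgTGG
Ctnnb1 guide 3: agccaagcgctggacattagTGG
Ctnnb1 guide 5: agctacttgctcttgcgtgaAGG
Ctnnb1 guide 6: gagattatgcagtgtcgtgaTGG
Tcf7l1 guide: cttaaaaaaagcgccatcctGGG
Tcf7 guide: agctgggggacgccatgtggAGG
Tcf7l2 guide: ttagcggccaagaggcaaga
Lef1 guide: ctcccaggaaagcatccaga

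Reads on genes numbered between 13089780 and 76071568 per library. *Ctnnb1* read 1040 to 1652 normalized counts in the 4 libraries with *Ctnnb1* guides and 2521 to 3397 in their 4 controls, groups that did not overlap. With Cre it read 2254 to 3085, and without Cre 2207 to 3880; gene counts do not test the deletion of part of the gene, so the Cre libraries are not checked by these values. Of the QKO targets in high CHIR, *Tcf7* read 268 to 535 normalized counts in controls and 110 to 180 in the QKO, and *Lef1* 1144 to 2743 and 255 to 513. *Tcf7l1* in low CHIR read 1736 to 2225 and 827 to 1286, and in high CHIR its control and QKO libraries together read 486 to 736. The *Tcf7l2* values in high CHIR (1263 to 2233 and 999 to 1616) overlapped. Transcript counts do not measure the cuts themselves, so the share of edited cells is not checked by these values. The 8 nephron progenitor markers summed to between 16373 and 32879 normalized counts in the no and low CHIR libraries of all tables. Of the 9 ureteric markers, *Aqp2* was in no table, *Wnt9b* was in the Tcf/Lef table alone with at most 4.32 normalized counts, and *Slco4c1* and *Calb1* stayed at or under 7.58 and 54.9 normalized counts in every library. Ureteric signal was not absent, as 5 of the 9 passed the filter in the wild-type table and 2 in each other table. The listed genes summed to 1772 to 5976 normalized counts in wild-type high CHIR. Replicate 1 of the Tcf/Lef GFP guide controls in high CHIR stood apart in blood markers, with a sum of 2542 normalized counts where the other 10 libraries of that table held at most 34.9; without it the log2 differences of high from low CHIR in these controls were 0.23 for *Gfra1* and -0.0375 for *Gdnf*, which turned their direction, neither being called. In bulk samples, fewer cells of a type and less RNA per cell cannot be told apart.

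Across the 14 comparisons, which were fitted with limma on log2(normalized count + 1) and called at an adjusted p under 0.05 with a log2 difference of at least 0.5, *Gfra2* was called in 9, *Gfra1* in 3 and *Gdnf* in 0. By DESeq2 on the recovered reads *Gdnf* was called in the wild-type step to high CHIR alone, and its unadjusted limma p was 0.0101 there and 0.0393 for QKO in high CHIR. The share of all tested genes that was called sets the background for these calls. In wild-type NPCs it was 10.4% for the step from low to high CHIR (5.33% higher, 5.05% lower) and 4.97% for no against low CHIR (2.37% higher, 2.6% lower). In the controls the step to high CHIR called 8.05% without Cre (2.8% higher, 5.24% lower) and 7.51% with the GFP guide of the β-catenin table (2.98% higher, 4.53% lower). With the GFP guide of the Tcf/Lef table it called 14.9% (6.98% higher, 7.96% lower). Removal of β-catenin in low CHIR called 0.328% of genes with Cre (0.179% higher, 0.149% lower) and 0.0536% with Cas9 (0.0358% higher, 0.0179% lower). In high CHIR it called 8.65% with Cre (5.9% higher, 2.75% lower) and 5.09% with Cas9 (3.44% higher, 1.64% lower). The QKO called 0.0063% of genes in low CHIR (0.0063% higher, 0% lower) and 2.54% in high CHIR (2.05% higher, 0.491% lower). For the difference of a knockout's effect between high and low CHIR the share was 0.995% with Cre (0.745% higher, 0.25% lower), 0.518% with Cas9 (0.471% higher, 0.0477% lower) and 0.126% with the QKO (0.107% higher, 0.0189% lower). The comparisons of a table share control libraries, so they are not independent of each other. The median log2 difference over all genes tested lay between -0.0155 and 0.0385 in the 14 comparisons.

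**Figure D1:**
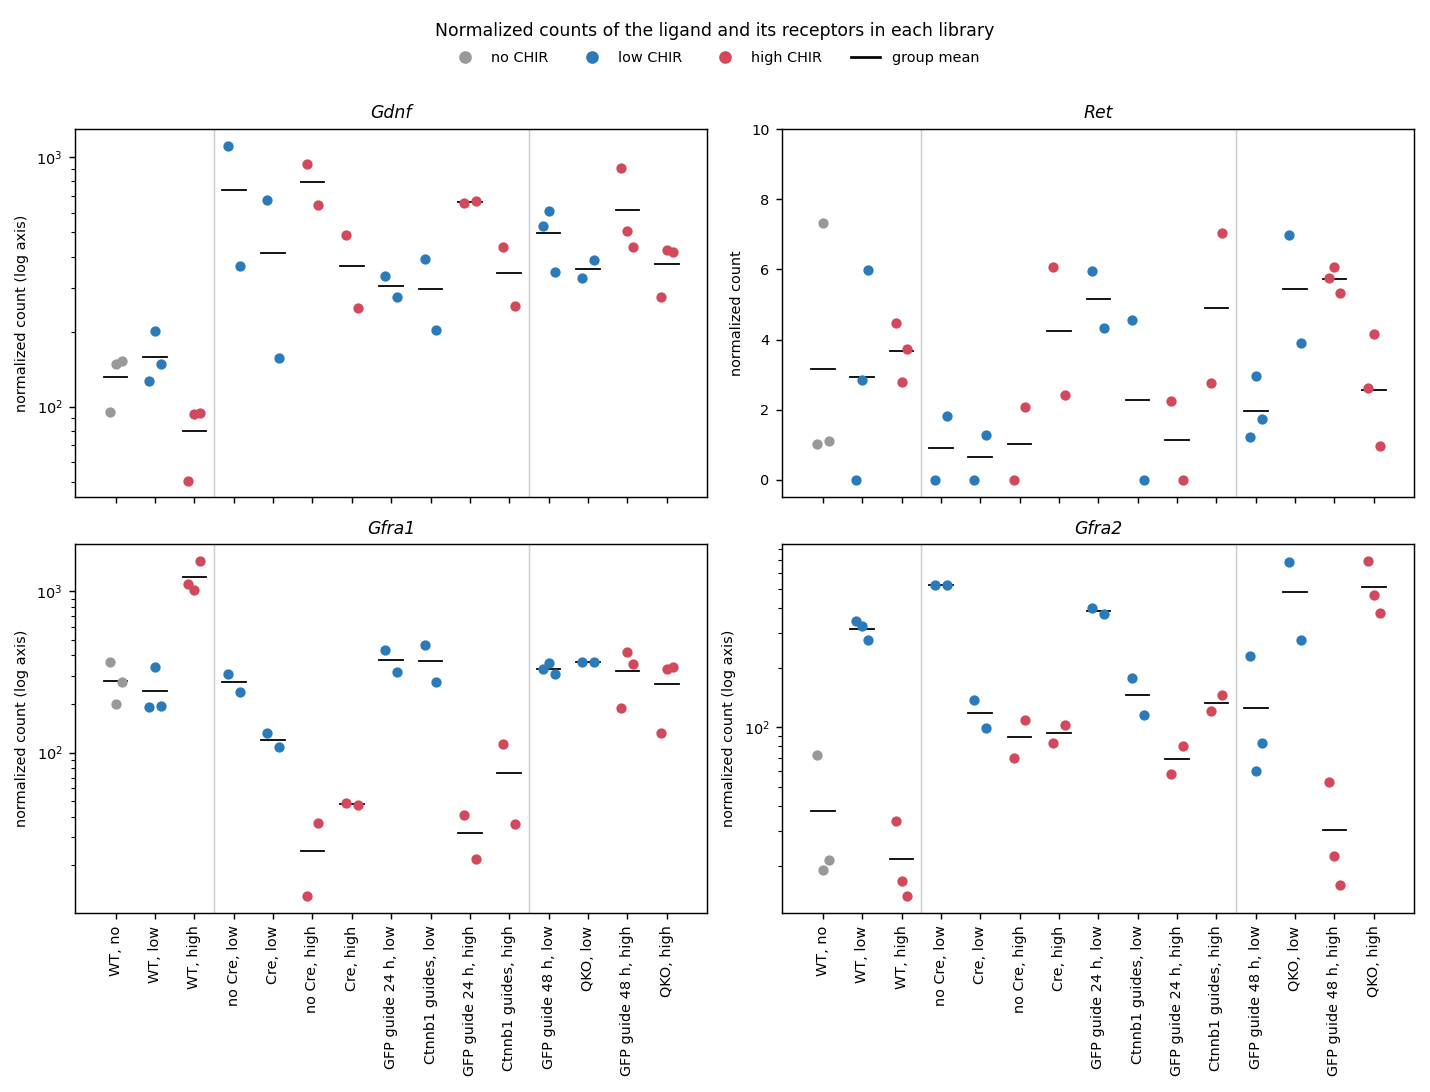
Normalized counts (log axes, except for *Ret*) of the 4 genes in each of the 36 libraries, by group. Points are libraries, black bars are group means, colours are CHIR doses, and grey lines part the 3 tables, which were normalized separately. *Ret* stays between 0 and 7.32 normalized counts throughout, *Gfra2* in wild-type NPCs is highest in low CHIR and in the Tcf/Lef table is above its controls in the QKO, and *Gfra1* in high CHIR is high in wild-type NPCs and low in the β-catenin table.

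Per kilobase of exon the order of the genes differed between groups. In wild-type low CHIR *Gfra2* stood at 88.9 ± 9.98 normalized counts per kb (SD, n = 3), above *Gfra1* at 43.9 ± 15.3 and *Gdnf* at 43.2 ± 10.50, and the last 2 did not differ beyond their spread. *Ret* followed at 0.436 ± 0.443. In wild-type high CHIR the order was *Gfra1* at 223 ± 50.6, *Gdnf* at 21.6 ± 6.84, *Gfra2* at 6.06 ± 2.999 and *Ret* at 0.543 ± 0.125 normalized counts per kb, with no overlap between neighbours. In QKO NPCs in high CHIR *Gfra2* (144 ± 45.8) and *Gdnf* (101 ± 22.9) overlapped at the head, followed by *Gfra1* at 48.7 ± 21.2. *Ret* was last in each of the 15 groups.

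*Gdnf*, the ligand, was read in every library, from 50.4 to 1112 normalized counts. In wild-type NPCs it read 94.8, 148 and 152 normalized counts without CHIR, 126, 201 and 149 in low CHIR, and 50.4, 93.5 and 94.4 in high CHIR. The 3 high CHIR libraries lay below all 3 low CHIR libraries, and no and low CHIR overlapped. The log2 difference of high from low CHIR was -1.02 (SE 0.323), with an adjusted p of 0.0743 by limma, which missed the threshold. DESeq2 on the recovered reads gave an adjusted p of 0.0317 for it. The interval of the difference, at 95%, ran from -1.74 to -0.30. For no against low CHIR the log2 difference was -0.27 (interval -0.99 to 0.45, adjusted p 0.674 by limma).

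In the β-catenin table *Gdnf* was variable between replicates, and in the groups with and without Cre replicate 1 always read above replicate 2. In low CHIR it read 1112 and 366 normalized counts without Cre and 673 and 157 with Cre. In high CHIR it read 942 and 645 without Cre and 487 and 249 with Cre, and there both Cre libraries lay below both controls. With the GFP guide it read 333 and 275 in low CHIR and 658 and 669 in high CHIR, a pair of groups that did not overlap. With *Ctnnb1* guides it read 390 and 202 in low CHIR and 436 and 254 in high CHIR. In high CHIR the removed libraries of both methods were below their controls, by -1.16 (SE 0.623) with Cre and -0.99 (SE 0.623) with Cas9 on the log2 scale, with adjusted p of 0.324 and 0.417 by limma. In low CHIR the log2 differences were -0.97 (adjusted p 0.627) and -0.11 (adjusted p 1). None of the 4 was called with libraries treated as unpaired. The intervals reach from -2.50 to 0.18 for Cre in high CHIR and from -2.33 to 0.35 for Cas9 in high CHIR. With the replicate number as a block, limma called both high CHIR differences (adjusted p 0.0174 with Cre and 0.0466 with Cas9). With 2 pairs per comparison, whether the numbers pair libraries in this table was not settled. High against low CHIR gave 0.29 (adjusted p 0.833) without Cre and 1.13 (adjusted p 0.331) with the GFP guide.

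In the Tcf/Lef table *Gdnf* read 531, 608 and 348 normalized counts in low CHIR and 907, 508 and 435 in high CHIR with the GFP guide. With the QKO it read 328 and 388 in low CHIR (replicates 1 and 3) and 276, 424 and 418 in high CHIR. All 3 QKO libraries in high CHIR lay below all 3 controls, with a log2 difference of -0.68 (SE 0.292, interval -1.31 to -0.04) and an adjusted p of 0.317 by limma. In low CHIR the groups overlapped, with a log2 difference of -0.43 and an adjusted p of 0.904. The 7 of 8 stroma markers in this table, summed, read 1044 to 4059 normalized counts in those high CHIR controls and 1215 to 8081 in the QKO. In the β-catenin table all 8 read 4718 to 13979 in high CHIR controls and 7102 to 19158 after removal, and in wild-type NPCs 10993 to 16399 in low and 3777 to 11192 in high CHIR. The isolation depleted cells bearing CD140, CD105, Ter119 or CD326, which include stromal cells. The part of these markers in the *Gdnf* values was not tested.

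*Ret*, the kinase that GDNF activates, was at the edge of detection in NPCs. It drew 112 reads in all 36 libraries, between 0 and 8 per library, and 6 libraries held 0 reads. In wild-type NPCs it read 1.02, 7.32 and 1.12 normalized counts without CHIR, 0, 2.85 and 5.99 in low CHIR, and 4.48, 2.79 and 3.74 in high CHIR. In the β-catenin table the highest value was 7.04, in a high CHIR library with *Ctnnb1* guides, and the Tcf/Lef libraries reached 6.97, in low CHIR with the QKO. A count of 0 allowed up to between 2.76 and 3.94 normalized counts in the 6 libraries at 0 (3 reads, counting error only). The 14 comparisons had adjusted p between 0.192 and 1 when limma was run with no filter, so no difference of *Ret* was detectable at this depth. In the Tcf/Lef table the 3 high CHIR controls (5.77, 6.07 and 5.32) lay above the 3 low CHIR controls (1.22, 2.96 and 1.73), each value made of 1 to 7 reads.

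*Gfra1*, the GDNF co-receptor, had opposite CHIR responses in wild-type NPCs and in the controls of the β-catenin table. In wild-type NPCs no CHIR gave 362, 201 and 273 normalized counts and low CHIR 191, 337 and 194, and these overlapped. In high CHIR it read 1111, 1013 and 1535 normalized counts, each above every other wild-type library. The log2 difference of high from low CHIR was 2.37 (SE 0.287, adjusted p 0.000635 by limma), a 5.16-fold rise. For no against low CHIR it was 0.22 (interval -0.42 to 0.86, adjusted p 0.706).

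Without Cre, *Gfra1* read 308 and 238 normalized counts in low CHIR and 12.9 and 36.3 in high CHIR, a log2 difference of -3.58 (SE 0.545, adjusted p 0.000916 by limma). With the GFP guide it read 429 and 317 in low CHIR and 41.2 and 22.02 in high CHIR, a log2 difference of -3.57 (SE 0.545, adjusted p 0.00109). Both controls fell 11.9-fold, with 14 to 55 reads behind each high CHIR value. Without Cre the log2 difference was -2.86 when high CHIR replicate 1 was left out and -4.29 when high CHIR replicate 2 was, with adjusted p of 0.0141 and 0.000949. In the GFP guide controls of the Tcf/Lef table *Gfra1* read 328, 358 and 306 in low CHIR and 188, 421 and 356 in high CHIR, groups that overlapped. There the log2 difference was -0.12 (interval -0.89 to 0.66, adjusted p 0.875).

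These CHIR responses come from 3 separately normalized tables and from cultures that differ in genotype, transfection, sorting and time, so their difference was not tested and those conditions cannot be told apart. Over the same low and high CHIR groups the 8 nephron progenitor markers fell in sum from 16373 to 23062 down to 3996 to 7833 normalized counts in wild-type NPCs, and from 21280 to 30901 down to 11139 to 15855 in the controls of the β-catenin table. Ureteric markers, summed over the listed genes, were at 617 to 808 in low and 1772 to 5976 in high CHIR in wild-type NPCs, led by *Gata3* (37.1 to 61.8 in low, 623 to 4283 in high CHIR). In the controls of the β-catenin table they were at 350 to 567 and 764 to 935. The isolation depleted CD326 (EpCAM) cells, and *Gata3* and *Hoxb7* are also expressed outside the ureteric tree. The 4 endothelial markers summed to 19.2 to 35.5 in low and 76.6 to 784 in high CHIR in wild-type NPCs, and to 13.3 to 28.8 and 15.6 to 36.7 in the controls of the β-catenin table. The part of these markers in the *Gfra1* values was not tested.

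**Figure D2:**
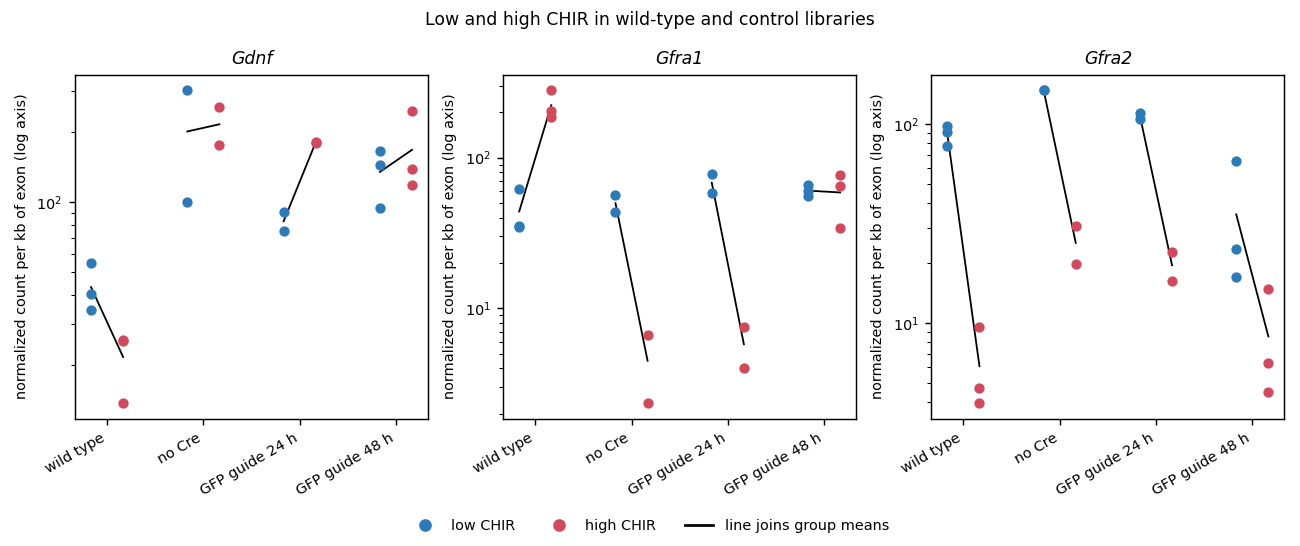
Normalized counts per kilobase of exon (log axes) of *Gdnf*, *Gfra1* and *Gfra2* in low and high CHIR, in wild-type NPCs and in the no Cre, 24 h GFP guide and 48 h GFP guide controls. Points are libraries and lines join group means; *Gfra2* is lower in high CHIR in all 4 series, while *Gfra1* rises to 223 per kb in wild-type NPCs and falls to 4.49 and 5.77 per kb in the no Cre and 24 h controls.

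Removal of β-catenin gave no called change of *Gfra1*. With Cre it read 131 and 108 normalized counts in low CHIR and 48.5 and 47.4 in high CHIR. The Cre libraries lay below their controls in low CHIR (log2 difference -1.18, SE 0.545, adjusted p 0.466 by limma) and above them in high CHIR (1.10, SE 0.545, adjusted p 0.276). With *Ctnnb1* guides it read 466 and 275 in low CHIR and 113 and 36.1 in high CHIR. These overlapped their controls in both media, apart by -0.04 (adjusted p 1) and 1.06 (adjusted p 0.309). The difference of the effect between high and low CHIR was 2.28 (SE 0.771, adjusted p 0.300) with Cre and 1.11 (adjusted p 0.851) with Cas9. With the QKO *Gfra1* read 365 and 364 in low CHIR and 133, 329 and 338 in high CHIR, and the log2 differences from the GFP guide were 0.14 (interval -0.73 to 1.01) and -0.31 (interval -1.08 to 0.47).

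*Gfra2*, the co-receptor that prefers neurturin, was highest in low CHIR in wild-type NPCs and lower on both sides of that dose. Its normalized counts were 72.6, 19.0 and 21.2 with no CHIR, 344, 324 and 275 in low CHIR, and 33.6, 16.8 and 14.0 in high CHIR. The 3 low CHIR libraries lay above the other 6, which overlapped each other. High CHIR lowered it 15.0-fold (log2 difference -3.90, SE 0.505, adjusted p 0.000920 by limma). With no CHIR it was 9.82-fold lower than in low CHIR (log2 difference -3.30, SE 0.505, adjusted p 0.00874). Leaving out replicate 2 in low CHIR or replicate 3 with no CHIR moved the adjusted p of the second to 0.0503 and 0.0528, and leaving out replicate 1 with no CHIR moved its log2 difference to -3.90.

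The fall from low to high CHIR was seen in each set of controls. Without Cre *Gfra2* read 524 and 523 normalized counts in low CHIR and 70.0 and 109 in high CHIR (log2 difference -2.57, SE 0.310, adjusted p 0.000134 by limma). With the GFP guide of the same table it read 401 and 376 in low CHIR and 57.7 and 80.4 in high CHIR (-2.49, SE 0.310, adjusted p 0.000213). With the GFP guide of the Tcf/Lef table it read 230, 60.2 and 83.0 in low CHIR and 52.7, 22.2 and 15.9 in high CHIR (-1.94, SE 0.542, adjusted p 0.0313). The last fall did not hold without low CHIR replicate 1 (adjusted p 0.125), high CHIR replicate 2 (0.105) or high CHIR replicate 3 (0.109). In that table replicate 1 held the highest *Gfra2* value of each group, and also the highest stroma sum of each group. Those sums read 8455, 3448 and 3210 normalized counts in low and 4059, 1379 and 1044 in high CHIR in these controls, and their part in the *Gfra2* values was not tested.

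Removal of β-catenin lowered *Gfra2* in low CHIR. With Cre it read 138 and 99.1 normalized counts beside 524 and 523 without, a 4.45-fold fall (log2 difference -2.15, SE 0.310, adjusted p 0.00728 by limma). The adjusted p was 0.0918 without control replicate 1 and 0.0990 without Cre replicate 2. With *Ctnnb1* guides it read 177 and 115 beside 401 and 376, again with no overlap. That log2 difference was -1.44 (SE 0.310) with an adjusted p of 0.362 by limma, an unadjusted p of 0.000432 and an adjusted p of 0.00544 by DESeq2. In high CHIR *Gfra2* read 82.8 and 103 with Cre, within the range of its controls (log2 difference 0.08, interval -0.59 to 0.75). With *Ctnnb1* guides it read 121 and 145 in high CHIR, above both controls (0.95, SE 0.310, adjusted p 0.0999 by limma and 0.0436 by DESeq2).

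The effect of removal on *Gfra2* differed between low and high CHIR by both methods. The difference was 2.24 on the log2 scale with Cre (SE 0.438, adjusted p 0.0246 by limma) and 2.39 with Cas9 (SE 0.438, adjusted p 0.0256). Each call was lost when any 1 of 6 of its 8 libraries was left out, the exceptions being control replicate 2 in high CHIR and, in low CHIR, replicate 1 after removal, by either method, with adjusted p up to 0.117 for Cre and 0.169 for Cas9, while the log2 value stayed between 1.92 and 2.55 and between 2.07 and 2.70. After removal, *Gfra2* spanned 99.1 to 177 normalized counts in low CHIR and 82.8 to 145 in high CHIR over both methods, where the controls spanned 376 to 524 and 57.7 to 109.

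The QKO raised *Gfra2* in high CHIR. At that dose removal of β-catenin gave log2 differences of 0.08 with Cre and 0.95 with Cas9, neither called by limma. In low CHIR the QKO went against the fall seen after removal, but was called only with the replicate number as a block. In high CHIR it read 690, 464 and 376 normalized counts with the QKO beside 52.7, 22.2 and 15.9 with the GFP guide, and the lowest QKO library was above the highest control. The log2 difference was 4.16 (SE 0.542, adjusted p 0.00224 by limma), a 17.9-fold rise. In low CHIR it read 685 and 276 with the QKO (replicates 1 and 3) beside 230, 60.2 and 83.0. The QKO libraries lay above all controls, with a log2 difference of 2.04 (SE 0.606, adjusted p 0.904). In this table the replicate numbers pair the libraries, and with the replicate number as a block the low CHIR difference was 1.85 with an adjusted p of 0.0472. The difference of the QKO effect between high and low CHIR was 2.12 (SE 0.813, adjusted p 0.796), and 2.31 with an adjusted p of 0.0210 with the block. The QKO and the removal of β-catenin were run in separate experiments with different knockout periods, and the difference between them was not tested.

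**Figure D3:**
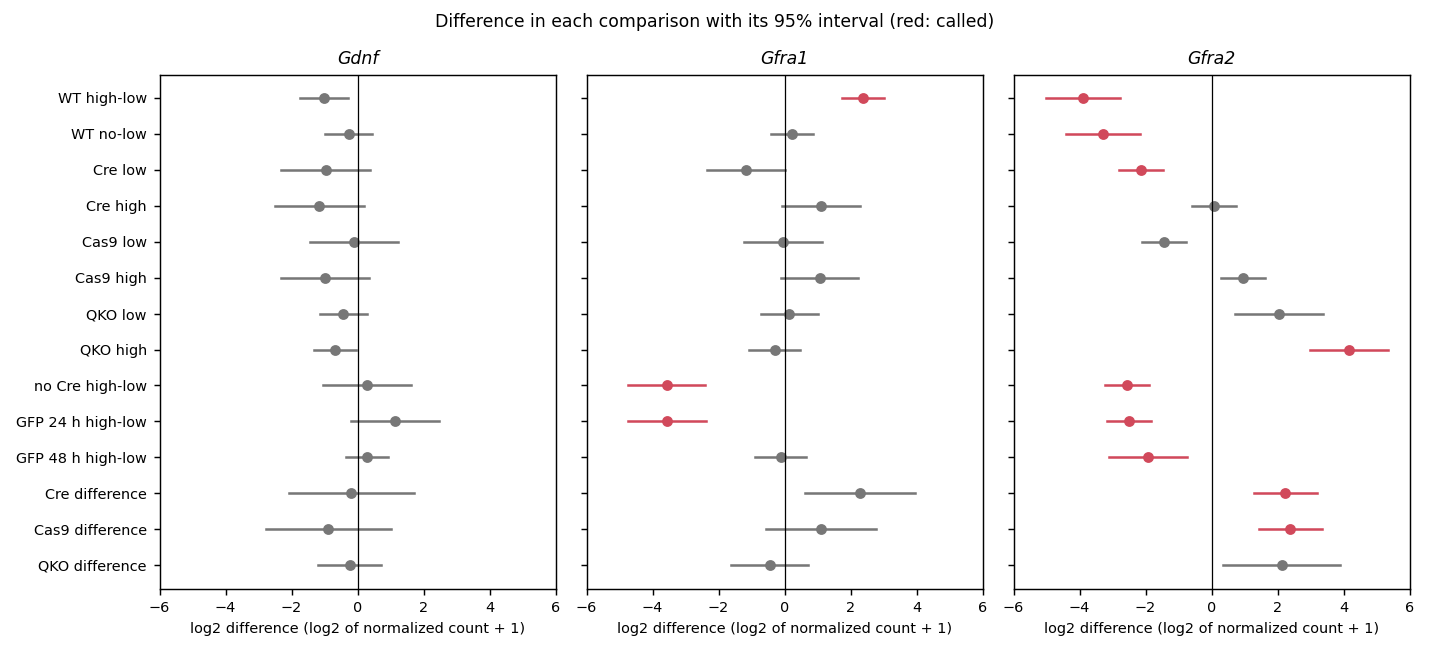
Log2 differences of *Gdnf*, *Gfra1* and *Gfra2* in the 14 comparisons, on the log2(normalized count + 1) scale, with 95% intervals from limma. High-low is high minus low CHIR and no-low is no minus low CHIR; Cre, Cas9 and QKO are the knockout minus its control in low or high CHIR, and a difference is the effect in high minus that in low CHIR. Red marks the calls, 9 for *Gfra2*, from -3.90 to 4.16, and 3 for *Gfra1*, and none of the *Gdnf* intervals is red.

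The other GDNF family ligands, *Gfra3* and *Gfra4* reached at most 53.4 normalized counts in any library. *Nrtn* (neurturin) stayed at or under 9.01 normalized counts in every library and *Pspn* (persephin) under 21.1. *Artn* (artemin) reached 49.5 in 1 wild-type high CHIR library and at most 7.71 elsewhere than in wild-type NPCs. *Gfra3* and *Gfra4*, the co-receptors of artemin and persephin, reached 29.3 and 53.4 normalized counts. None of the 4 GDNF family ligands was called in any of the 14 comparisons, with 2 of the 4 tested in the wild-type and β-catenin tables and 1 in the Tcf/Lef table.

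Besides *Gfra1* and *Gfra2*, a pair of listed receptors was called. *Ncam1*, a neural cell adhesion molecule that can bind GDNF with GFRα1, rose in high CHIR by 0.89 (SE 0.210, adjusted p 0.0177 by limma) without Cre and by 0.82 (SE 0.190, adjusted p 0.0122) in the GFP guide controls of the Tcf/Lef table. *Sdc3*, a heparan sulphate proteoglycan that binds GDNF, fell by 2.07 (SE 0.412, adjusted p 0.00603) and 1.83 (SE 0.246, adjusted p 0.000381) in the same controls. With Cre in high CHIR both turned the other way, *Ncam1* falling by 0.74 (SE 0.210, adjusted p 0.0437) and *Sdc3* rising by 1.45 (SE 0.412, adjusted p 0.0440). Neither gene was called in wild-type NPCs, in the 24 h GFP guide controls, or after Cas9 or the QKO. Of 8 receptors and co-receptors, 5 or 6 were tested in each table, and no more than 1 was called higher and 3 lower in any comparison. The 3 lower were in the step to high CHIR without Cre, where 5.24% of all genes tested fell.

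Among 11 RET adaptors and effectors, all tested, *Grb7* was the main mover. *Grb7*, an SH2 adaptor, read 266 ± 128 normalized counts in low and 2177 ± 1220 in high CHIR in wild-type NPCs (SD, n = 3), a log2 difference of 2.94 (SE 0.556, adjusted p 0.00741 by limma). It rose in high CHIR in the controls by 4.57 without Cre, 4.24 with the 24 h GFP guide and 6.87 with the 48 h GFP guide. In high CHIR its log2 differences after removal were -3.46 with Cre and -1.90 with Cas9 (adjusted p 6.43e-06 and 0.00178). *Gab1*, a docking protein, was called in the opposite direction, falling by 0.90 without Cre and 1.24 with the 48 h GFP guide in high CHIR and rising by 0.98 with Cre. *Grb10* fell by 0.74 in the 24 h GFP guide controls (adjusted p 0.0284). The median of the 11 genes lay between -0.29 and 0.37 in the 14 comparisons, beside medians of all genes near 0.

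Of 11 genes that GDNF and RET raise in ureteric tips, 2 rose and 1 fell among 9 tested in the 48 h GFP guide controls in high CHIR, and 2 rose and 0 fell among 9 in the 24 h controls. Among all genes tested, 6.98% rose and 7.96% fell at 48 h, and 2.98% rose and 4.53% fell at 24 h. *Wnt11* and *Etv5* were not called in any comparison in which they passed the filter. In wild-type NPCs, 10 of the 11 were tested, and in high CHIR *Mmp14*, a membrane metalloprotease, rose by 1.15 (adjusted p 0.0341 by limma) and *Spry1*, a feedback inhibitor of receptor kinases, fell by 0.94 (adjusted p 0.0316). *Cxcr4*, a chemokine receptor, was lower by -3.28 with no CHIR (adjusted p 0.0326) and higher in high CHIR by 3.27 and 3.91 in the 24 h and 48 h GFP guide controls. *Myb* rose by 2.30 and 1.55 in the same controls, and *Met*, the HGF receptor, rose by 2.32 with Cre in high CHIR (adjusted p 0.00477).

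Of 14 activators of *Gdnf* expression, 6 fell and 0 rose in wild-type high CHIR, where 5.05% of all genes fell and 5.33% rose. *Gdnf* itself had a log2 difference of -1.02 there, not called by limma (adjusted p 0.0743) but called by DESeq2. The 6 were *Osr1* (910 ± 413 normalized counts in low CHIR and 0 in all 3 high CHIR libraries), *Six2* (-5.40), *Eya1* (-5.28), *Wt1* (-4.11), *Itga8* (-2.68) and *Hoxa11* (-0.72), by log2 difference. The median log2 difference over all 14 was -0.98 where that of all genes was 0.01. In the no Cre, 24 h and 48 h controls *Osr1* (-3.92, -3.51 and -4.06) and *Eya1* (-0.87, -1.16 and -2.38) also fell in high CHIR. *Pax2* rose there (2.37, 2.97 and 2.06). *Six2* fell without Cre (-2.04) and at 48 h (-3.34), and at 48 h *Wt1* fell (-1.51) and *Six4* rose (1.02). *Gdnf* had log2 differences of 0.29, 1.13 and 0.28 in these controls, none called by limma. In high CHIR 2 of the activators rose and 4 fell with Cre, beside 5.9% and 2.75% of all genes. With Cas9 1 rose and 3 fell, beside 3.44% and 1.64%. *Osr1*, a zinc finger factor of the nephrogenic mesenchyme, rose by 4.44 with Cre and 3.77 with Cas9, and *Pax2*, a paired-box factor that binds the *Gdnf* gene, fell by 2.55 and 1.87. With the QKO in high CHIR 2 rose, *Osr1* by 2.18 (adjusted p 0.00289) and *Six2* by 1.64 (adjusted p 0.0226), and 0 fell, beside 2.05% and 0.491% of all genes. In low CHIR 0 of the 13 or 14 tested were called with either removal or with the QKO, where at most 0.328% of all genes was called.

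Of 7 restrictors of *Gdnf* expression or range, 1 rose and 3 fell in wild-type high CHIR, where 5.33% of all genes rose and 5.05% fell. *Foxc2* (-3.63) and *Foxc1* (-3.40), forkhead factors, and *Spry1* (-0.94) fell on the log2 scale, and *Slit2*, the ligand of ROBO2, rose by 1.39. *Robo2*, the receptor whose loss widens the *Gdnf* domain, was not called in wild-type NPCs or with the QKO. It fell in high CHIR in the controls, with log2 differences of -4.03, -3.67 and -3.99 in the no Cre, 24 h and 48 h controls. It rose in high CHIR by 3.71 with Cre (398 ± 27.1 normalized counts without and 5258 ± 850 with, SD, n = 2) and by 2.37 with Cas9. With the QKO in high CHIR *Foxc2* rose by 2.70 and *Slit2* fell by 1.499 (both adjusted p 0.00377).

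**Figure D4:**
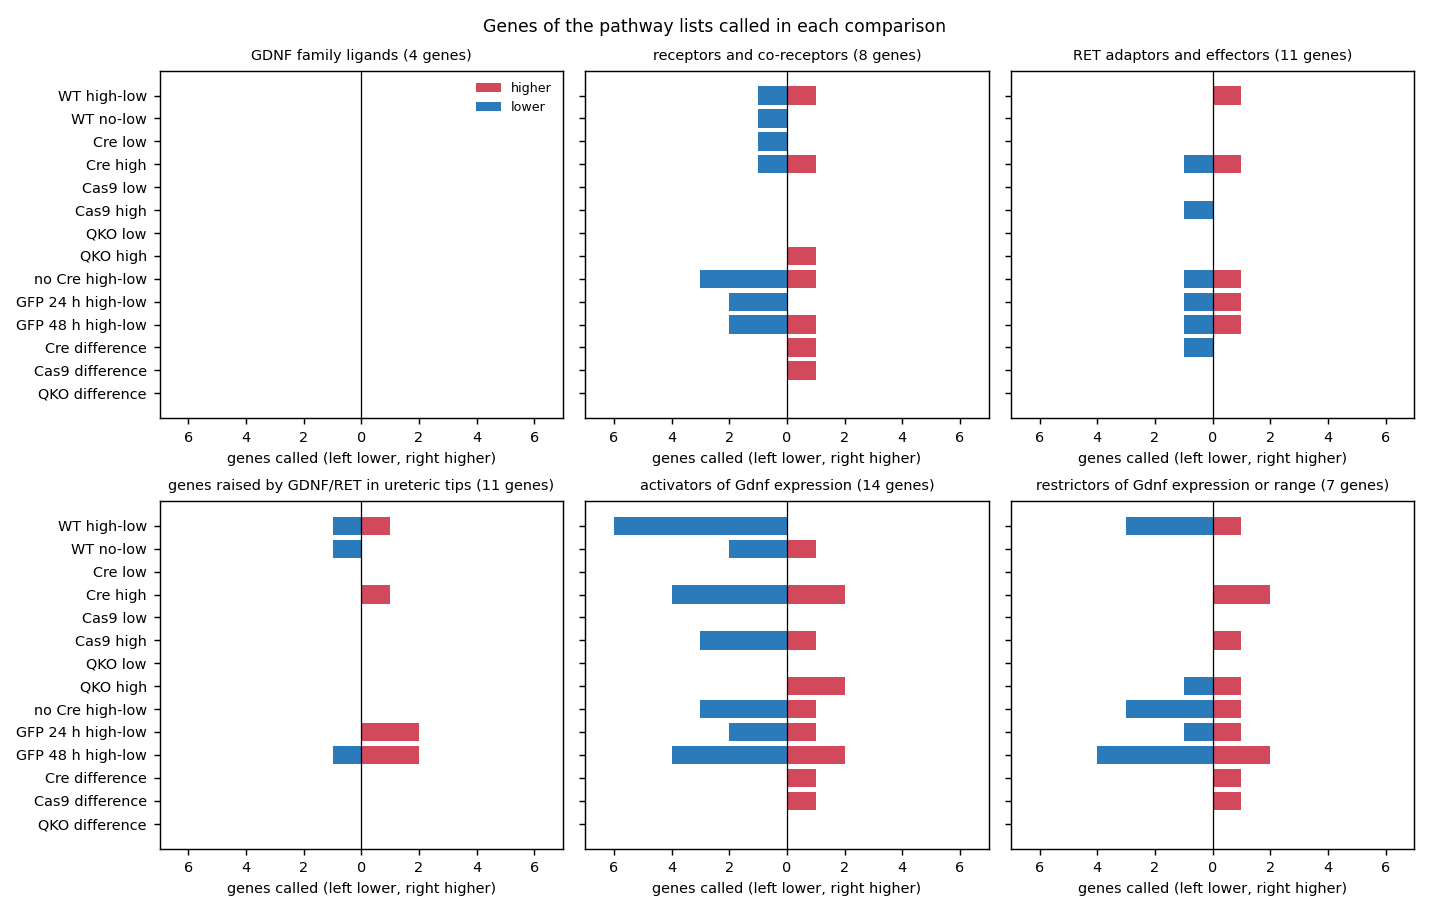
Number of genes of each pathway list called lower (left) or higher (right) by limma in each of the 14 comparisons. The longest bar is the 6 activators of *Gdnf* expression called lower in wild-type high CHIR, and the ligand list has no bar.

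The genes most like each member were sought over all 36 libraries, after each table's mean was removed, among 14952 genes. Closest to *Gdnf* were *Pts* (Pearson r 0.720), *Alms1-ps1* (0.708) and *Smarcd2* (0.708). Within the wild-type table alone the r of *Pts* with *Gdnf* was -0.123, beside 0.855 in the β-catenin and 0.759 in the Tcf/Lef table. Closest to *Gfra1* were *Elk3* (0.795), *Wscd1* (0.781) and *Ckb* (0.757). Close to *Gfra2* were *Krt15* (0.795) and *Prr5* (0.793), each with an r of at least 0.699 in every table. Libraries of a table share culture conditions and depth, so these values describe likeness of pattern.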

How the data were processed

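NPC RNA was sequenced by the authors as paired-end reads of SMARTer cDNA, aligned with STAR and counted per Ensembl gene with featureCounts (GRCm38). The deposited signal is a normalized count, made by the authors with DESeq2 size factors in 3 separate tables. Dividing a library's values by the worth of 1 read gave whole numbers (within 0.05) throughout, so reads were recovered; in 3 libraries the step lay so near 1 that it could not be checked independently. The 8 deposited comparison tables (fold changes and p-values) and 50 of their columns of per-sample values were not used.

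The 17411, 16780 and 15878 genes averaging 10 or more were fitted with limma 3.58.1 (R 4.3.3) on log2(normalized count + 1), which understates changes of low genes, over all libraries of a table, with Benjamini-Hochberg adjustment. edgeR 4.0.16 and DESeq2 1.42.0 on recovered reads, a pseudocount of 0.5, no filter, TMM rescaling, fewer libraries, a replicate block and leave-one-out were alternatives. The study ran DESeq2 for its comparisons. Simulated counts with known changes were used to test the fits. Libraries may be technical or biological replicates, and p-values measure the spread between them.

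Same-numbered Tcf/Lef libraries deviated together (r 0.214 to 0.637), and headers of its comparison tables carry 3 dates, so numbers pair libraries there. Wild-type (r -0.0156 to 0.272) and β-catenin libraries (0.116 to 0.518, but 2 pairs per comparison) were treated as unpaired.

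The members and lists were chosen with earlier results of these data known. Pathway genes are given as counts, with values for at most 8 called genes of a list per comparison, the largest first. The genes printed among these were picked after their values were seen. Guides come from the study's list of designed guides. The likeness rule takes the 3 genes with the highest r; some items that these rules name are not reported here.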

Additional observations from a re-analysis of the deposited data

Results flagged for a closer look

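The effect of β-catenin removal on *Gfra2* differed between high and low CHIR, by 2.24 on the log2 scale with Cre and 2.39 with Cas9 (adjusted p 0.0246 and 0.0256 by limma, the tests of the difference itself). With each method both removed libraries were below both controls in low CHIR, and in high CHIR those with Cas9 were above their controls and those with Cre lay within theirs.

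High CHIR gave *Gfra1*, and likewise *Gdnf*, differences of opposite sign in different experiments. Only experiments whose low and high CHIR libraries did not overlap were flagged, so that separation is part of the rule. The experiments that overlapped gave log2 differences of -0.12 for *Gfra1* at 48 h and, for *Gdnf*, 0.29 without Cre and 0.28 at 48 h. The log2 difference of *Gfra1* was 2.37 in wild-type NPCs, -3.58 in the no Cre controls and -3.57 in the 24 h GFP guide controls. That of *Gdnf* was -1.02 in wild-type NPCs and 1.13 in the 24 h GFP guide controls, neither past the threshold by limma. The tables were normalized separately, so these differences were not tested.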

How the results depend on the processing

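Outside leave-one-out, 92 of 98 alternative values of *Gdnf*, 97 of *Gfra1* and 91 of *Gfra2* kept their direction and their side of the threshold, and 0 reversed; *Ret* was fitted only with no filter. DESeq2 on recovered reads called *Gdnf* in wild-type high against low CHIR (-0.997) and *Gfra2* after Cas9 in low (-1.42) and high CHIR (0.95). Fitting only the libraries compared lost *Gfra2* after Cre in low CHIR (-2.15, adjusted p 0.156), in the 48 h GFP controls (-1.94, adjusted p 0.0660) and in the Cre difference (2.24, adjusted p 0.131), and called *Gdnf* in the 24 h GFP controls (1.13); the cause was not tested.

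With the replicate number as a block, which was taken to pair libraries only in the Tcf/Lef table, *Gfra2* was called for the QKO in low CHIR (1.85) and the QKO difference (2.31). The block also called *Gdnf* in wild-type high CHIR (-1.02), after Cre (-1.16, adjusted p 0.0174) and Cas9 (-0.99, adjusted p 0.0466) in high CHIR and in the 24 h GFP controls (1.13), and *Gfra1* for the Cre difference (2.28). It changed no other call of these genes.

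Leaving out 1 library gave these ranges. *Gfra2* ran from -3.90 to -2.96 for wild-type no against low CHIR, -2.39 to -1.92 for Cre in low and -0.23 to 0.40 in high CHIR, -2.42 to -1.37 in the 48 h GFP controls, 1.92 to 2.55 for the Cre difference and 2.07 to 2.70 for the Cas9 difference. *Gfra1* ran from -0.42 to 0.34 for Cas9 in low CHIR, -0.65 to 0.13 for the QKO in high CHIR and -0.35 to 0.23 in the 48 h GFP controls. *Gdnf* ran from -2.02 to 0.0757 for Cre and -0.58 to 0.37 for Cas9 in low CHIR, -0.51 to 1.09 in the no Cre and -0.0375 to 0.49 in the 48 h GFP controls, -1.24 to 0.86 for the Cre difference and -0.46 to 0.0737 for the QKO difference. The values that changed sign (10 of *Gdnf*, 4 of *Gfra1*, 2 of *Gfra2*) were of differences that had not been called.

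Counts of genes called moved more. Across the alternatives outside leave-one-out they ran from 1378 to 2610 for wild-type high CHIR (1808 as reported), 730 to 1784 for no CHIR (865), 4 to 513 for Cre in low (55) and 624 to 2639 in high CHIR (1452), 0 to 30 for Cas9 in low (9) and 700 to 2133 in high CHIR (854), and 0 to 22 for the QKO in low (1) and 390 to 1181 in high CHIR (404). In the controls they ran from 552 to 2661 without Cre (1350), 1104 to 2562 at 24 h (1260) and 1757 to 3321 at 48 h (2372), and for the differences from 49 to 526 for Cre (167), 82 to 235 for Cas9 (87) and 18 to 158 for the QKO (20). Leaving out 1 library moved them from 113 to 1032 for wild-type no CHIR, 995 to 2207 for high CHIR, 18 to 303 for Cre in low and 838 to 972 in high CHIR, 0 to 1 for Cas9 in low and 204 to 421 in high CHIR, 0 to 4 for the QKO in low and 157 to 480 in high CHIR, 776 to 1724 without Cre, 504 to 666 at 24 h, 1545 to 3112 at 48 h, and 95 to 165, 29 to 61 and 4 to 50 for the differences. *Ret* had at most 8 reads in a library.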
